A study of Homo sapiens with 32 samples.

Results

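CXCL9, CXCL10 and CXCL11, the 3 chemokines that bind the receptor CXCR3, were taken by gene name from the 60107 genes of an RNA sequencing series in THP-1 cells and were followed over its 8 groups. Each name matched 1 gene, and all 3 were among the 12406 genes tested. THP-1 is a human monocytic leukemia line. The study asked how ATP citrate lyase (ACLY), the enzyme that makes acetyl-CoA from citrate, and its phosphorylation at serine 455 act on the response to LPS, a component of the outer membrane of Gram-negative bacteria.

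The 4 lines were KO cells, which carry an ACLY knockout, and 3 lines that carry the same knockout and a reintroduced ACLY: wild type (WT), H760A, which is catalytically inactive, or S455A, which cannot be phosphorylated at serine 455. The reintroduced forms were delivered by a lentiviral vector with an EF promoter and puromycin selection. The sources used here do not say whether the KO cells were transduced, and single-cell-derived knockout clones are stated to vary in gene expression. Each line was left unstimulated or given LPS at 100 ng/ml for 3 hours according to the sample labels, and another paragraph of the study's methods names a different concentration. Each of the 8 groups had 4 libraries of 1 line. The p-values therefore measure the spread between libraries within groups, which the main fit pooled over all 8 groups for each gene. A genotype and any other difference between the lines cannot be told apart.

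CXCL9, CXCL10 and CXCL11 draw activated T cells and NK cells, which carry CXCR3, to inflamed tissue. Monocytes and macrophages make all 3 after interferon, which acts through the transcription factors ISGF3 and IRF1, and LPS induces them partly through interferon beta, with NF-kB as a further activator. Interferon gamma is the classical inducer of CXCL9, while CXCL10 and CXCL11 also respond strongly to type I interferons.

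Between 6504099 and 14750815 reads per library fell on genes (median 10247620). QuantSeq reads the 3′ end of each transcript, and the values below are normalized counts, which are reads divided by a size factor computed over all 32 libraries. Levels were compared between groups and not between genes. In these bulk libraries, fewer cells that make a transcript and less RNA per cell cannot be told apart. All 10 monocytic markers listed passed the filter on low counts, while of the lymphocyte markers CD3E and CD3G, chains of the T cell receptor complex, had no read in any library and CD3D had 1. ACLY itself had 103 ± 11.5 normalized counts in WT and 89.7 ± 17.7 in KO cells (SD, n = 4), and its 3′ reads did not separate these lines (limma adjusted p = 0.884). In replicate 1 of S455A after LPS the ACLY count was 333 and that of CXCR3 was 0, apart from the other 3 libraries of that group, so the chemokine differences and list medians of that group are also given without it.

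The 3 genes stand side by side on chromosome 4 on the minus strand. In GENCODE release 44 on GRCh38, CXCL9 lies at chr4:76001275-76007509, CXCL10 at chr4:76021118-76023497 and CXCL11 at chr4:76033682-76041415. The start sites that RefSeq gives are 15988 bases apart between CXCL9 and CXCL10 and 12573 bases apart between CXCL10 and CXCL11. CXCL10 and CXCL11 lie within ART3 on the opposite strand, with 0 exon bases shared, and CXCL9 overlaps the antisense gene SDAD1-AS1 in the same way. Whether the authors' counting used strand is not given in the sources used here.

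The 250 bases before each start site are shown because they hold matches to the interferon and NF-kB motifs of these genes. They are from RefSeq on GRCh38.p14, were identical to the GRCh38 genome, and are written 5′ to 3′ on the minus strand of chr4:76007510-76007759 for CXCL9, chr4:76023498-76023747 for CXCL10 and chr4:76036071-76036320 for CXCL11. The RefSeq start of CXCL11 is inside the longer GENCODE gene. Capitals mark matches to GAAA followed by NN and a second GAAA (N is any base), the core of the interferon-stimulated response element (ISRE), to TTCNNNGAA, the gamma-activated site (GAS), and to the 10-base consensus NF-kB motif, each searched on both strands.
CXCL9: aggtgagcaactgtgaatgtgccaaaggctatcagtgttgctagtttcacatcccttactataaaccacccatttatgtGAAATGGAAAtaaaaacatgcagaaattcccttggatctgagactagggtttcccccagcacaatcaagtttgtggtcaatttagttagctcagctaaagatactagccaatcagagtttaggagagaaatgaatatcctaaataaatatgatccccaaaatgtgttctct
CXCL10: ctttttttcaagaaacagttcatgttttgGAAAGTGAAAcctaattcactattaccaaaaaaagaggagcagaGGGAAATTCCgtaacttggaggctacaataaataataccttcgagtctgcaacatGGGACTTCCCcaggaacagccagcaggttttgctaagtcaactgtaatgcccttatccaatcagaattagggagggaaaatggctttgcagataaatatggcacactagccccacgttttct
CXCL11: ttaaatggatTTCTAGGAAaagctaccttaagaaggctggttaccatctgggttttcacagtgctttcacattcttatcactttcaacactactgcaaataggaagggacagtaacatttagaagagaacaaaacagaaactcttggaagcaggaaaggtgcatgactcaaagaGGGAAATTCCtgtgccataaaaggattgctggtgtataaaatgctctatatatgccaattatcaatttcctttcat

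The ISRE core was found in CXCL9 at -171 to -162 as GAAATGGAAA and in CXCL10 at -221 to -212 as GAAAGTGAAA, counted from the start site. The GAS letters were found in CXCL11 at -240 to -232 as TTCTAGGAA. The NF-kB motif was found in CXCL10 at -177 to -168 as GGGAAATTCC and at -122 to -113 as GGGACTTCCC, and in CXCL11 at -76 to -67 as GGGAAATTCC. No match overlapped another, all read in the direction of the gene, which for the GAS letters is the same on both strands, and the same 10 letters of the NF-kB motif occur before CXCL10 and CXCL11. Of 35116 promoters of the same length, 3.02% held the ISRE core, 6.57% the GAS letters and 5.21% the NF-kB motif. A match is a description of the letters in this window and not of binding.

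**Figure D1:**
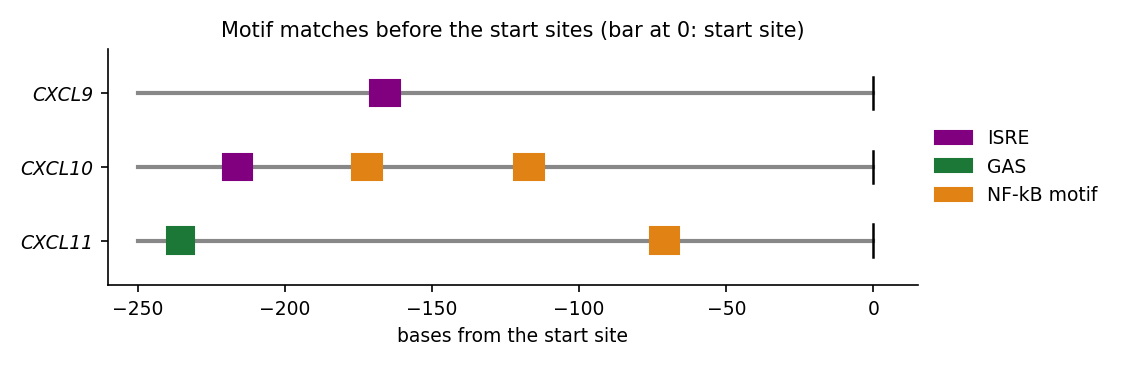
Map of the motif matches in the 250 bases before the start sites of CXCL9, CXCL10 and CXCL11. The horizontal axis is the distance from the start site in bases, boxes are matches to the ISRE core, the GAS or the NF-kB motif, and the bar at 0 is the start site; CXCL10 has 3 matches, CXCL11 has 2 and CXCL9 has 1.

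All 3 chemokines rose with LPS in all 4 lines, and all 3 were highest in KO cells after LPS. KO cells had more CXCL10 and CXCL11 than WT cells already without LPS, by 11.6-fold and 6.48-fold in the ratio of means, and after LPS had more of all 3, by 21.2-fold for CXCL9, 9.89-fold for CXCL10 and 12.5-fold for CXCL11. H760A cells lay between KO and WT in the means of all 3 genes in both conditions. Of these differences from WT only CXCL11 after LPS passed the test, and that call was lost in 4 of the alternative settings. CXCL11 without LPS, and CXCL9 and CXCL10 after LPS, passed only in some of the alternative settings. No difference between S455A and WT cells passed the test used here, while the study's own DESeq2 comparison listed CXCL11 as higher in S455A after LPS.

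CXCL9 was near the limit of detection without LPS. The normalized counts of unstimulated WT libraries 1 to 4 were 0, 0, 0 and 11.5, and all 13 reads of the group were in replicate 4. Unstimulated KO libraries had 6.50, 9.66, 1.37 and 10.3 and unstimulated H760A libraries 0, 5.67, 8.37 and 2.68. All 4 unstimulated S455A libraries were at 0, so that 3 reads over the group, a level of 0.609, are the limit that a count of 0 allows. This limit covers counting error only. Without LPS, the libraries of WT, KO and H760A cells overlapped.

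After LPS, every library held CXCL9. The counts were 30.4, 43.1, 46.4 and 32.1 in WT libraries and 1020, 1381, 516 and 303 in KO libraries. They were 202, 193, 238 and 104 in H760A libraries and 55.2, 102, 150 and 77.2 in S455A libraries. The KO libraries were above those of each other line, the WT libraries were below all others, and H760A and S455A libraries overlapped.

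CXCL10 was detected in all 32 libraries. Without LPS, its counts were 107, 106, 48.8 and 177 in WT libraries and 2139, 1578, 448 and 940 in KO libraries. They were 170, 149, 299 and 248 in H760A libraries and 60.9, 101, 108 and 72.7 in S455A libraries. The KO libraries did not overlap with any other line, and the H760A libraries overlapped with WT through WT replicate 4.

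After LPS, CXCL10 counts were 2026, 1745, 941 and 1422 in WT libraries and 17342, 25162, 6523 and 11635 in KO libraries. They were 2396, 4704, 3808 and 4575 in H760A libraries and 1498, 3920, 3579 and 2697 in S455A libraries. The lowest KO library again exceeded the highest library of any other line. Every H760A library was above every WT library, and S455A overlapped with WT through S455A replicate 1. Unstimulated KO libraries and LPS-stimulated WT libraries covered overlapping ranges, with means of 1276 ± 738 and 1533 ± 466 (SD, n = 4).

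CXCL11 counts without LPS were 5.81, 11.0, 9.09 and 31.1 in WT libraries and 121, 94.5, 72.6 and 81.2 in KO libraries. They were 51.6, 17.8, 56.2 and 34.0 in H760A libraries and 18.4, 24.4, 30.0 and 14.3 in S455A libraries. The KO libraries stood above all others, and the ranges of the other 3 lines overlapped.

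After LPS, CXCL11 counts were 228, 208, 231 and 231 in WT libraries and 4980, 2798, 1762 and 1696 in KO libraries. They were 675, 926, 961 and 738 in H760A libraries and 444, 692, 783 and 529 in S455A libraries. WT libraries were nearly level, with a coefficient of variation of 5.04% against 54.6% in KO, and lay below every library of the other 3 lines.

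**Figure D2:**
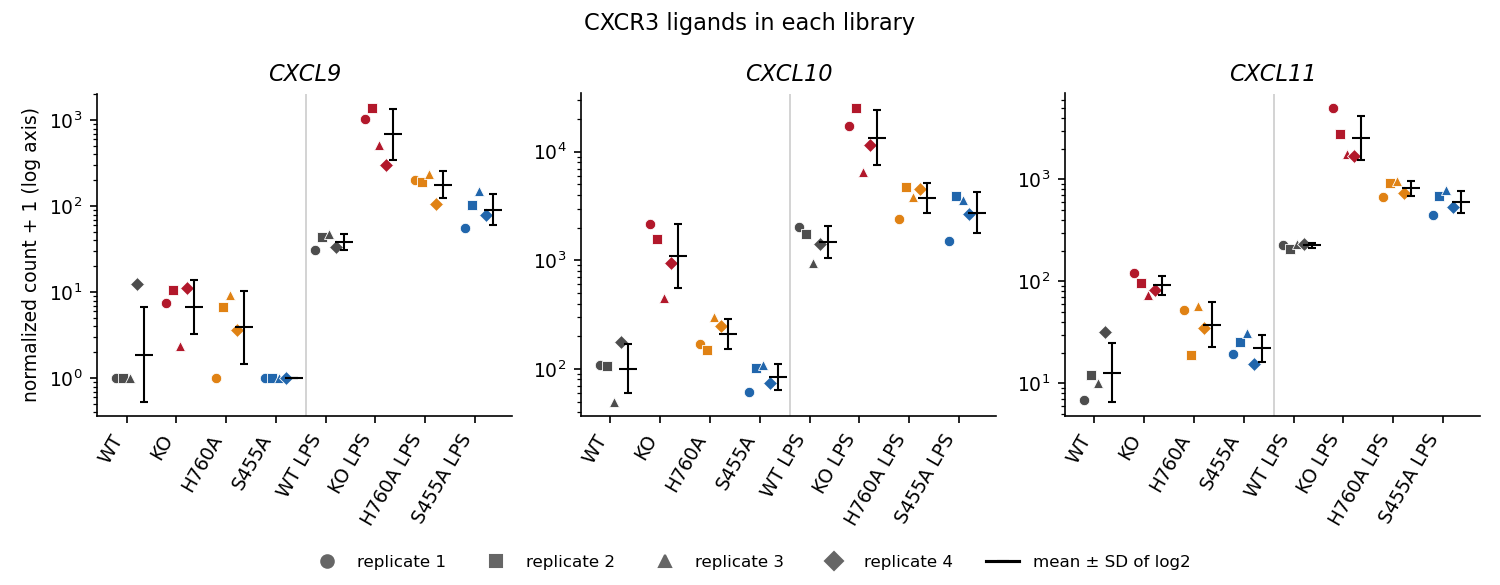
Normalized count + 1 of CXCL9, CXCL10 and CXCL11 in each library on a log axis, by line and treatment. Symbols are replicates 1 to 4 and the black bar beside them is the mean ± SD of the log2 values; after LPS the 4 KO libraries lie above all others for each gene, for CXCL10 from 6523 to 25162.

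Whether the loss of ACLY changes the chemokines was asked by comparing KO with WT cells. In unstimulated cells, 2 of the 3 genes were higher in KO, against 1.8% of all tested genes, and the same 2 did not overlap between the lines, against 5.9%. Fold changes here and below are differences of log2(normalized count + 1), a scale on which changes of low counts appear too small. The log2 fold change was 3.44 ± 0.43 (SE) for CXCL10 (limma adjusted p = 2.69e-06) and 2.84 ± 0.38 for CXCL11 (adjusted p = 6.03e-06). For CXCL9 it was 1.85 with a 95% interval of 0.45 to 3.26 and did not pass the limit of 0.01 (adjusted p = 0.150). That value rested on 1 library: without WT replicate 4, it was 2.77 and passed (adjusted p = 0.00464).

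After LPS, all 3 genes were higher in KO than in WT, against 2.14% of all tested genes, and none overlapped, against 6.73%. The log2 fold change was 4.16 ± 0.69 (SE) for CXCL9 (limma adjusted p = 0.000125), 3.19 ± 0.43 for CXCL10 (adjusted p = 8.49e-06) and 3.50 ± 0.38 for CXCL11 (adjusted p = 2.06e-07). Leaving out each KO library in turn gave 3.82 to 4.55 for CXCL9, 2.89 to 3.54 for CXCL10 and 3.17 to 3.69 for CXCL11, all past the limit. The replicate number as a block in a fit of the compared groups alone raised the number of genes called from 360 to 723 without LPS and from 430 to 1333 after LPS, and changed no call of the 3 chemokines.

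WT and KO libraries with the same number deviated from their group means together, so same-numbered libraries were also set side by side. For CXCL10, KO exceeded WT by 19.9-fold, 14.9-fold, 9.18-fold and 5.32-fold without LPS and by 8.56-fold, 14.4-fold, 6.94-fold and 8.18-fold after LPS at numbers 1 to 4. For CXCL11, the ratios were 20.8, 8.56, 7.99 and 2.61 without LPS and 21.9, 13.5, 7.64 and 7.33 after LPS. For CXCL9 after LPS, they were 33.6, 32.1, 11.1 and 9.44. Every ratio given here was above 1, and numbers 1 and 2 had the larger ratios in each of these sets. For CXCL9 without LPS, where 3 of the WT libraries were at 0, KO was below WT at number 4.

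Cells with the catalytically inactive H760A form were compared with WT cells in the same way, and these comparisons share the WT libraries with those above. In unstimulated cells, 0 of the 3 genes passed the test for higher counts, against 1.42% of all tested genes, and 3045 genes had an unadjusted p below 0.05. The log2 fold change was 1.05 for CXCL9 (95% interval -0.36 to 2.46), 1.05 for CXCL10 (0.16 to 1.95) and 1.56 for CXCL11 (0.78 to 2.33), with limma adjusted p = 0.334, 0.136 and 0.0111. Without WT replicate 4 the CXCL9 value was 1.96 (adjusted p = 0.0635). For CXCL11 the call turned on single libraries, since the difference passed without WT replicate 4 (2.00, adjusted p = 0.000733) and without H760A replicate 2 (1.89, adjusted p = 0.00333), and on the deposited scale (1.69).

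After LPS, 1 of the 3 genes was higher in H760A, against 1.16% of all tested genes, while the libraries of all 3 genes lay above those of WT, against 7.09%. CXCL11 differed by 1.86 ± 0.38 (SE) on the log2 scale (limma adjusted p = 0.00253). CXCL9 differed by 2.21 (95% interval 0.80 to 3.62, adjusted p = 0.0683) and CXCL10 by 1.34 (0.45 to 2.23, adjusted p = 0.0828). CXCL9 passed with a pseudocount of 4 and in a fit of the compared groups alone (limma adjusted p = 0.00437 and 0.00284). CXCL10 passed with library weights (limma adjusted p = 0.000949). The call of CXCL11 was lost without replicate 2 of LPS-stimulated WT cells (adjusted p = 0.0107) or replicate 2 or 3 of LPS-stimulated H760A cells (0.0113 and 0.0118), with differences of 1.78 to 1.82. It was also lost with the replicate block in these groups alone (adjusted p = 0.0103), although the numbers did not pair these lines.

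The phosphorylation-deficient S455A cells were compared with WT cells as the third line. Without LPS, 0 of the 3 genes passed, as did 0 of all tested genes (0.0%), while 445 genes had an unadjusted p below 0.05, voom on the recovered reads called 0 and library weights called 4. The log2 fold change was -0.91 for CXCL9 (95% interval -2.32 to 0.50), -0.26 for CXCL10 (-1.15 to 0.64) and 0.79 for CXCL11 (0.02 to 1.56), each with limma adjusted p = 0.998. For CXCL10 the sign changed without WT replicate 4 (0.02). For CXCL9 all libraries of both groups were at 0 once WT replicate 4 was left out.

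After LPS, again 0 of the 3 genes and 0.0% of all tested genes passed, with 646 genes at an unadjusted p below 0.05, 0 called by voom and 12 with library weights. The differences were 1.24 for CXCL9 (95% interval -0.16 to 2.65), 0.90 for CXCL10 (0.01 to 1.79) and 1.41 for CXCL11 (0.64 to 2.18), each with limma adjusted p = 0.825. The means were 2.53-fold, 1.91-fold and 2.73-fold those of WT. The unadjusted limma p was 0.0810, 0.0487 and 0.000826 for CXCL9, CXCL10 and CXCL11. The study's own DESeq2 comparison, at an adjusted p below 0.01, listed CXCL11 among the genes higher in S455A than in WT after LPS. For CXCL9 and CXCL11 every S455A library was above every WT library, as was the case for 1.27% of all tested genes. Without S455A replicate 1, the differences were 1.48, 1.19 and 1.55 (adjusted p = 1.00, 1.00 and 0.697).

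The response to LPS was compared within each line. All 3 genes were higher after LPS in all 4 lines and did not overlap with unstimulated libraries. Among all tested genes, 0.25% were called higher in WT, 0.5% in KO, 0.387% in H760A and 0.468% in S455A, and 1.77%, 1.95%, 1.99% and 2.11% did not overlap. The replicate block in the compared groups alone raised the genes called from 31 to 126 in WT and from 71 to 116 in KO, and all 3 genes stayed called.

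CXCL9 differed by 4.35 on the log2 scale in WT (limma adjusted p = 0.000660), 6.66 in KO (3.46e-07), 5.51 in H760A (8.87e-06) and 6.51 in S455A (3.99e-07). Measured from the limit of 3 reads over the unstimulated group, CXCL9 was at least 157-fold higher in S455A cells after LPS. The WT value rested on WT replicate 4, and without it the response was 5.26 (adjusted p = 4.10e-06). In WT the call was lost in a fit of the WT libraries alone (4.35, adjusted p = 0.0823) and with voom (4.98, adjusted p = 0.0694). In S455A it was lost with a replicate block in the S455A libraries alone (6.51, adjusted p = 0.0230).

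CXCL10 differed by 3.87 in WT (limma adjusted p = 2.37e-06), 3.63 in KO (3.51e-06), 4.16 in H760A (6.07e-07) and 5.02 in S455A (6.46e-09), which in ratios of means was 14.0-fold, 11.9-fold, 17.9-fold and 34.1-fold. In KO the call was lost in a fit of the KO libraries alone (adjusted p = 0.0166). CXCL11 differed by 4.14 in WT (adjusted p = 4.73e-08), 4.79 in KO (1.69e-09), 4.45 in H760A (9.14e-09) and 4.76 in S455A (1.77e-09), with ratios of means of 15.7, 30.4, 20.7 and 28.1. Without S455A replicate 1, the S455A responses were 6.74, 5.31 and 4.91 for CXCL9, CXCL10 and CXCL11.

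Whether the LPS response itself differed from that of WT was tested as an interaction, and 0 of the 3 genes passed in any line. Of all tested genes, 0.00806% passed for KO and 0.0% for H760A and S455A, and 175, 142 and 457 genes had an unadjusted p below 0.05, while voom and library weights called 1, 0 and 0. The difference of responses between KO and WT was 2.31 for CXCL9 (95% interval 0.32 to 4.30), -0.25 for CXCL10 (-1.51 to 1.01) and 0.65 for CXCL11 (-0.44 to 1.74), each with limma adjusted p = 1.00. For H760A it was 1.16 (-0.83 to 3.15), 0.29 (-0.97 to 1.55) and 0.30 (-0.79 to 1.39). For S455A it was 2.16 (0.17 to 4.15), 1.15 (-0.11 to 2.41) and 0.62 (-0.47 to 1.71). Without unstimulated WT replicate 4, the CXCL9 differences fell to 1.40 in KO, 0.25 in H760A and 1.24 in S455A. Those of CXCL10 were then -0.52, 0.02 and 0.88 and those of CXCL11 0.21, -0.14 and 0.18. Without replicate 1 of LPS-stimulated S455A cells, the S455A values were 2.39, 1.44 and 0.77 (adjusted p = 0.889 each). The sign for CXCL10 in KO changed without unstimulated WT replicate 3 (0.09), unstimulated KO replicate 1 (0.08) or LPS-stimulated KO replicate 3 (0.10), and that for CXCL11 in H760A without unstimulated WT replicate 4 (-0.14) or unstimulated H760A replicate 2 (-0.03).

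**Figure D3:**
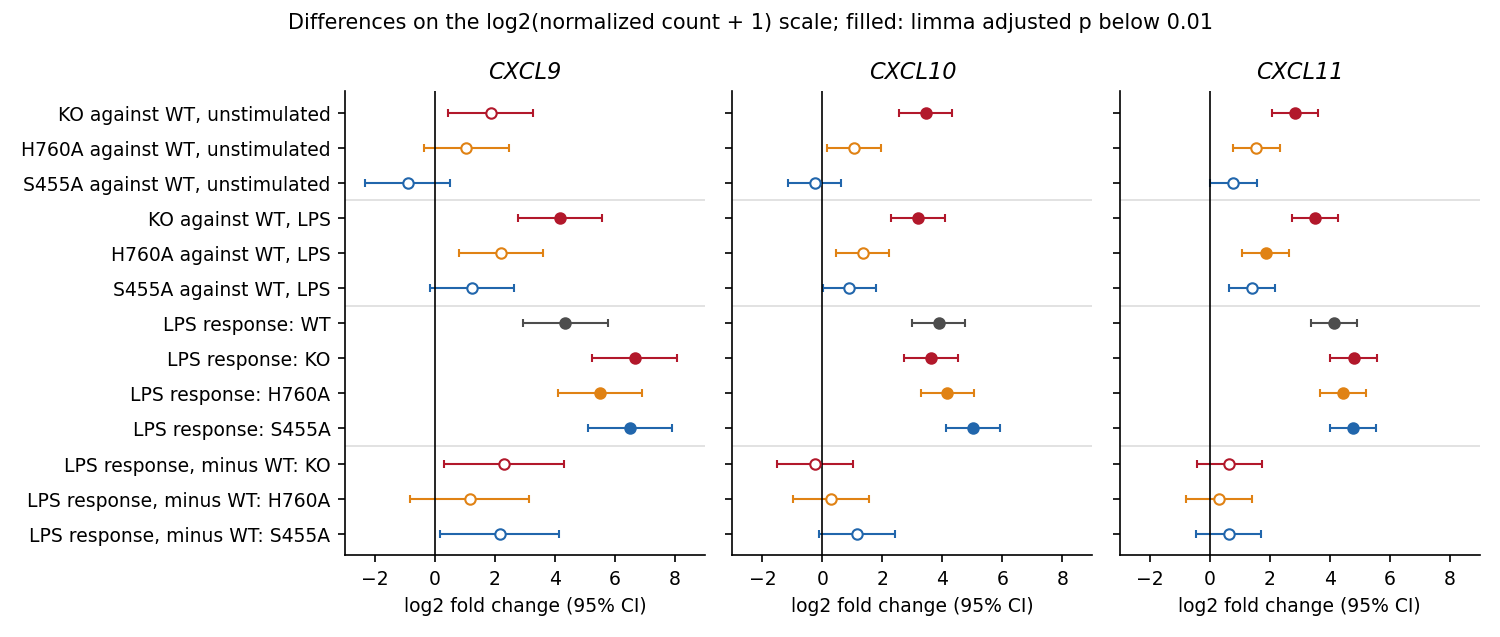
Log2 fold changes of CXCL9, CXCL10 and CXCL11 with 95% intervals in the 13 comparisons with WT or with unstimulated cells, on the log2(normalized count + 1) scale. Filled points passed a limma adjusted p of 0.01; all LPS responses and, after LPS, all 3 differences between KO and WT are filled, and no difference of LPS responses is.

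The order of the means after LPS was KO, H760A, S455A and WT for each gene, and without LPS it was the same for CXCL11, while WT preceded S455A for CXCL9 and CXCL10. Neighbours were compared by the same fit. KO exceeded H760A in CXCL10 without LPS by 2.39 (limma adjusted p = 0.00477, against 0.202% of all tested genes called higher), a call that was lost in 9 of the alternative settings, among them those without unstimulated KO replicate 1, 2 or 4 and those without unstimulated H760A replicate 1, 2 or 4, and by 1.29 in CXCL11 without passing (adjusted p = 0.181). After LPS, KO libraries lay above H760A libraries for all 3 genes, against 2.66% of all tested genes, with differences of 1.95, 1.85 and 1.64 that did not pass (adjusted p = 0.278, 0.0600 and 0.0566), and 0.00806% of all tested genes did. CXCL9 and CXCL11 passed there with voom (1.94 and 1.63, adjusted p = 0.00837 and 0.00123), and CXCL10 with library weights (1.72, adjusted p = 0.00308).

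KO and S455A are not neighbours in this order. Without LPS, KO exceeded S455A in 2 of the 3 genes, against 1.61% of all tested genes, by 3.70 for CXCL10 and 2.06 for CXCL11 (limma adjusted p = 1.24e-06 and 0.000663), and CXCL9 missed the limit (2.77, adjusted p = 0.0128). CXCL9, with S455A at 0, ranged from 1.36 to 4.02 over the alternative settings. It passed without KO replicate 3 (3.27, adjusted p = 0.00459), on the deposited scale (2.61, adjusted p = 0.00779), with a pseudocount of 0.5 (3.62, adjusted p = 0.00606) and with library weights (3.22, adjusted p = 0.00134). The replicate block in these groups alone ended the calls of CXCL10 and CXCL11 (adjusted p = 0.0424 and 0.0728), and voom that of CXCL11 (adjusted p = 0.0134). The KO libraries of all 3 genes were above those of S455A without overlap, as were those of 5.26% of tested genes. KO exceeded S455A after LPS in all 3 genes, by 2.92 for CXCL9, 2.30 for CXCL10 and 2.09 for CXCL11 (limma adjusted p = 0.00799, 0.000887 and 0.000529), against 1.77% of all tested genes. The call of CXCL9 was lost in 11 alternative settings, among them those without LPS-stimulated KO replicate 1, 2 or 3 and those without LPS-stimulated S455A replicate 1, 2 or 4. Without that replicate 1, the differences were 2.69, 2.01 and 1.94 (adjusted p = 0.0286, 0.00523 and 0.00235). The calls of CXCL10 and CXCL11 were lost in the 2 fits of the compared groups alone. Between H760A and S455A, 0 of the 3 genes passed with limma in either condition, against 0.725% of all tested genes without LPS and 1.06% after LPS. Without LPS, the CXCL10 libraries of H760A were above those of S455A without overlap, as in 6.11% of tested genes, and those of CXCL9 and CXCL11 overlapped. The differences without LPS were 1.96, 1.31 and 0.77 for CXCL9, CXCL10 and CXCL11 (adjusted p = 0.117, 0.0939 and 0.307, unadjusted p = 0.00803, 0.00543 and 0.0507), and CXCL10 passed with the replicate block in these groups alone (adjusted p = 0.00739). After LPS the differences were 0.96, 0.45 and 0.45 with 95% intervals of -0.44 to 2.37, -0.44 to 1.34 and -0.32 to 1.22, and the libraries overlapped for each gene, so neither line could be placed above the other. Without S455A replicate 1 they were 0.73, 0.16 and 0.31.

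CXCR3, the receptor shared by the 3 chemokines, was itself read in THP-1 cells. It had mean normalized counts of 85.8 in WT, 58.4 in KO, 46.6 in H760A and 90.8 in S455A cells without LPS and 81.0, 56.8, 52.7 and 63.0 after LPS, and the last was 83.9 without S455A replicate 1. Its log2 fold change was -0.79 in KO (limma adjusted p = 0.841) and -1.12 in H760A (adjusted p = 0.421) without LPS, and no comparison of the gene passed. ACKR3, an atypical receptor that also takes up CXCL11, had 39 reads in all libraries, DPP4, the peptidase that trims these chemokines, had 128, and ACKR1, a scavenger of chemokines on red cells and endothelium, had 0, so these 3 were not tested.

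The interferons that induce the chemokines were read at very different levels. IFNG, which encodes interferon gamma, had 0 reads in all libraries. IFNB1, which encodes interferon beta, had 129 reads in all, of which 121 came from LPS-stimulated KO cells, where its counts in libraries 1 to 4 were 55.3, 84.4, 0 and 3.97. KO libraries 1 and 2 after LPS, which held nearly all IFNB1 reads, were also the higher 2 for CXCL9, CXCL10 and CXCL11. IFNB1 was below the mean of 10 counts needed for the test, and its part in the chemokine differences was not tested.

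IFNL1, a type III interferon, had 0 reads in unstimulated WT libraries and counts of 19.5, 25.8, 5.48 and 21.5 in unstimulated KO libraries. After LPS, it had 0, 5.28, 1.19 and 4.02 in WT and 83.0, 138, 38.9 and 64.3 in KO libraries. It was higher in KO without LPS (4.07, limma adjusted p = 0.000470) and after LPS (4.69, adjusted p = 6.41e-05). In H760A cells the difference after LPS was 2.19 and did not pass (adjusted p = 0.0975).

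Of 17 genes on the interferon route to the chemokines, 15 were tested. In KO, 6 were higher and 0 lower without LPS and 5 were higher and 0 lower after LPS, against 1.8% and 2.14% of all tested genes called higher. The median log2 fold changes were 0.72 and 1.10, beside -0.03 and -0.01 over all tested genes. IRF1, which binds ISRE sites, had counts of 920, 1064, 1073 and 1132 in WT and 2927, 4704, 4256 and 2625 in KO libraries after LPS, with no overlap. It was higher in KO by 0.84 without LPS (limma adjusted p = 0.00213) and by 1.75 after LPS (adjusted p = 5.19e-08). JAK2, a kinase of the interferon gamma receptor, was higher by 0.85 and 1.12 (adjusted p = 0.00117 and 2.87e-05).

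In H760A cells, 2 of the 15 were higher without LPS and 3 after LPS, with 0 lower in both, against 1.42% and 1.16% of all tested genes called higher. IRF1 was higher by 1.16 after LPS (limma adjusted p = 7.41e-05). STAT2, a subunit of ISGF3, was higher without LPS by 1.45 (adjusted p = 0.00138). In S455A cells 0 of the 15 and 0.0% of all tested genes passed in either condition. The medians of the 15 were 0.16 and 0.20, and the second was 0.43 without S455A replicate 1. IRF9, the DNA-binding subunit of ISGF3, did not pass in any comparison with WT and differed by 1.21 in KO without LPS (adjusted p = 0.393).

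**Figure D4:**
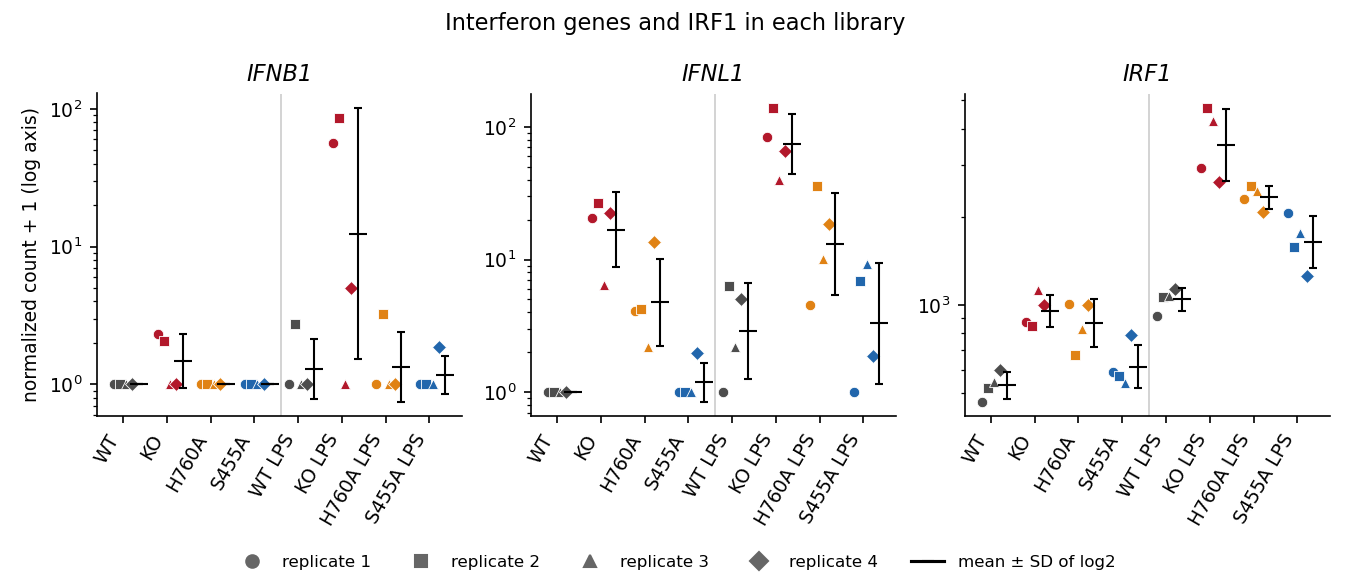
Normalized count + 1 of IFNB1, IFNL1 and IRF1 in each library on a log axis, by line and treatment. Symbols are replicates 1 to 4 and the black bar is the mean ± SD of the log2 values; IFNB1 counts of 55.3 and 84.4 were in KO libraries 1 and 2 after LPS, and IRF1 was above WT in all KO libraries of the same treatment.

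Of 15 tested genes that sense LPS and carry its signal to NF-kB, 1 was higher in KO without LPS and 0 after LPS, against 1.8% and 2.14% of all tested genes, and the medians were 0.29 and 0.28. The one was CD14, the LPS co-receptor, higher by 1.66 in unstimulated KO cells (limma adjusted p = 6.56e-05), while in LPS-stimulated H760A cells it was lower by a log2 fold change of -1.37 (adjusted p = 0.00113). TLR4, the LPS receptor, differed in KO by 0.48 without LPS and -0.08 after LPS (adjusted p = 0.887 and 0.982), and RELA, a subunit of NF-kB, by 0.19 and 0.07 (adjusted p = 0.857 and 0.948).

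Of 10 genes that restrain interferon or NF-kB signals, 1 was higher in KO without LPS and 1 after LPS, against the same 1.8% and 2.14%. Their log2 fold change was above 0 for 9 without LPS and for all 10 after LPS. The medians were 0.33 and 0.995, beside -0.03 and -0.01 over all tested genes. USP18, which blocks signalling at the type I interferon receptor, was higher without LPS by 2.79 (limma adjusted p = 0.00269), and ZC3H12A, a ribonuclease of inflammatory transcripts, after LPS by 1.08 (adjusted p = 0.00169). SOCS1, an inhibitor of JAK kinases, had counts of 208, 322, 20.1 and 82.6 in LPS-stimulated KO libraries and 25.8, 14.9, 5.95 and 6.43 in WT libraries, a difference that did not pass (3.10, adjusted p = 0.0708). Its KO libraries 1 and 2 were again the higher ones.

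Other targets of interferon gamma and of type I interferon were counted in the same comparisons. Of 16 tested targets of the interferon gamma type, 9 were higher in KO without LPS and 10 after LPS, with medians of 1.32 and 1.69, and 3 were higher in H760A in each condition. Of all tested genes, 1.8% and 2.14% were called higher in KO, and 1.42% and 1.16% in H760A. Examples after LPS in KO were GBP1, a guanylate-binding protein of cell-autonomous defense, by 3.83, CD274, which encodes PD-L1, by 3.76, and CIITA, the activator of MHC class II genes, by 3.23 (limma adjusted p = 5.67e-10, 0.000938 and 6.68e-06). GBP1 counts were 41.0, 51.0, 70.2 and 49.0 in WT and 1026, 719, 911 and 470 in KO libraries after LPS.

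Of 18 tested type I interferon targets, 18 were higher in KO in each condition, with medians of 2.30 without LPS and 1.95 after LPS, beside the same shares of all tested genes. In H760A, 12 were higher without LPS and 9 after LPS, with medians of 1.19 and 1.03. IFIT2, an interferon-induced RNA-binding protein, was higher in KO after LPS by 3.23, IFI44L, an interferon-induced gene, by 2.80 and RSAD2, which encodes the antiviral enzyme viperin, by 2.40 (limma adjusted p = 2.27e-08, 1.87e-10 and 1.30e-05). In S455A cells 0 of the 18 passed with limma, as did 0.0% of all tested genes. The study's own DESeq2 comparison listed IFI44, EPSTI1 and IFIT2 of these, and also GBP1, as higher in S455A than in WT after LPS. The log2 fold change in S455A was above 0 for 16 of the 18 without LPS and for 18 after LPS, with medians of 0.40 and 0.65. Without S455A replicate 1, the second median was 0.77 and 18 were above 0. After LPS in KO, the median over the 3 chemokines was 3.50, and in S455A it was 1.24, or 1.48 without replicate 1.

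**Figure D5:**
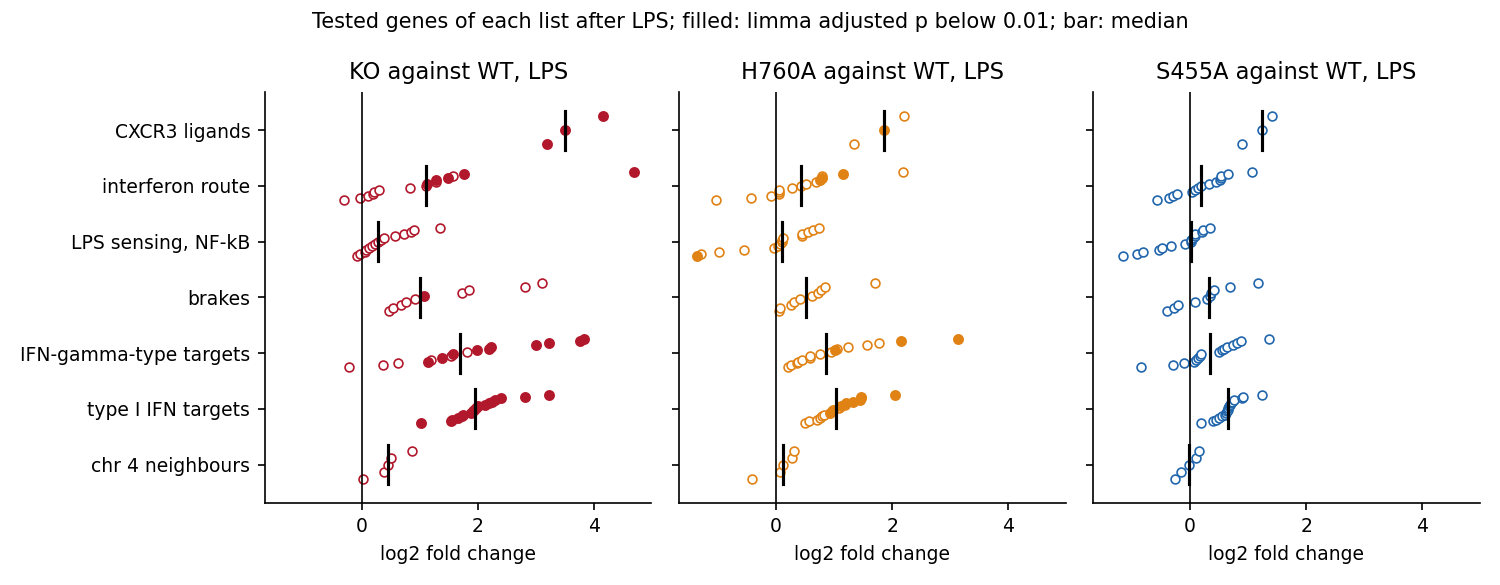
Log2 fold changes after LPS of KO, H760A and S455A against WT for the tested genes of 7 lists, on 1 shared axis. Points are genes, filled where the limma adjusted p was below 0.01, and the black bar is the median of a list; the CXCR3 ligands have medians of 3.50, 1.86 and 1.24 in the 3 panels.

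Of 7 chemokines with the ELR motif, which recruit neutrophils through CXCR2, only CXCL8 reached the mean of 10 counts. It had mean counts of 9.46 in WT and 21.7 in KO without LPS and 15.1 and 61.0 after LPS, and its difference after LPS did not pass (1.92, limma adjusted p = 0.0969). CXCL1 had 204 reads in all libraries and CXCL5 had 2.

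Genes beside the chemokines on chromosome 4 were listed to see whether the region moved as a whole. Of the 9 neighbours 5 were tested, and 0 of them passed in KO, H760A or S455A against WT with or without LPS. Of all tested genes, 1.8% without LPS and 2.14% after LPS were called higher in KO. The shares were 1.42% and 1.16% in H760A and 0.0% in S455A in both conditions. At such shares, a count of 0 among 5 genes cannot tell whether the region moved. The median in KO after LPS was 0.44, with SCARB2, a lysosomal membrane protein, at 0.86 (limma adjusted p = 0.138) and SDAD1, the neighbour on the CXCL9 side, at 0.02 (adjusted p = 0.981). ART3, the gene that spans CXCL10 and CXCL11 on the opposite strand, had too few reads for the test, 306 in all. Its counts were 1.45, 0.85, 0 and 0.89 in WT and 22.1, 29.0, 16.5 and 13.1 in KO libraries without LPS, and 7.59, 3.52, 2.38 and 1.61 in WT and 49.3, 42.2, 28.8 and 17.5 in KO libraries after LPS. The KO libraries of ART3 lay above those of WT without overlap in both conditions, as did those of 5.9% of tested genes without LPS and 6.73% after LPS. Whether these reads came from ART3 or from the opposite strand cannot be told apart.

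Over the 8 group means of log2(normalized count + 1), the 3 chemokines followed each other with Pearson's r of 0.972 between CXCL9 and CXCL10, 0.985 between CXCL9 and CXCL11 and 0.981 between CXCL10 and CXCL11. Such values were not particular to the 3 genes. Counting the third chemokine, 15 tested genes were more like CXCL9 than CXCL10 was, and 1 more than CXCL11 was. For CXCL10, 21 were more alike than CXCL9 and 12 more than CXCL11. For CXCL11, 8 were more alike than CXCL9 and 11 more than CXCL10. These and the following r describe 8 points, of which those of 1 line share cells, and no p is given. The gene most like CXCL9 was BIRC3, an inhibitor of apoptosis, with r = 0.996, followed by ICAM1, an adhesion molecule, CCL3L1, IFIT2 and CCL4. The gene most like CXCL10 was IFIT3 with r = 0.996, followed by OASL, ICAM1, CCL4 and GBP5. The gene most like CXCL11 was IFIT2 with r = 0.995, followed by GBP5, CCL4, CCL8 and TNFSF13B, which encodes the B cell factor BAFF. CCL3L1 and CCL4, which encode chemokines for monocytes and T cells, have near-identical copies, so that reads could be split among them.

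The order of the libraries within groups was shared by the 3 genes in some groups and not in others. In KO cells without LPS, libraries 1 and 2 were the higher 2 for CXCL10 and CXCL11, and library 3 was lowest for all 3 genes. In S455A cells after LPS, library 1 was lowest for all 3 genes. In WT cells after LPS, library 3 was highest for CXCL9 and lowest for CXCL10, and in H760A cells after LPS, library 2 was highest for CXCL10 and library 3 for CXCL9 and CXCL11. The share of CXCL9 in CXCL10, as a ratio of normalized counts within a library, was 0.578% ± 0.371 in KO without LPS and 5.47% ± 2.19 after LPS (SD, n = 4), and 2.79% ± 1.49 in WT, 5.27% ± 2.67 in H760A and 3.33% ± 0.727 in S455A after LPS. The KO ranges with and without LPS did not overlap, where the unstimulated ratios rest on 1 to 11 CXCL9 reads per library. Those of WT (0 to 6.53% and 1.498 to 4.93%) and H760A (0 to 3.80% and 2.28 to 8.44%) overlapped between conditions, and the ranges of the 4 lines after LPS overlapped.

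The summed level of the 10 monocytic markers was higher in KO and H760A libraries than in WT and S455A libraries in both conditions. It was 7410 to 9318 in WT, 17993 to 31094 in KO, 15434 to 22855 in H760A and 7421 to 9589 in S455A libraries without LPS. After LPS it was 6649 to 9349 in WT, 20279 to 37814 in KO, 15935 to 22724 in H760A and 9059 to 10353 in S455A libraries. Most of the sum was LYZ, which encodes lysozyme, with means of 4726 in WT and 23115 in KO cells after LPS (limma adjusted p = 2.84e-05), while CD33 was lower in KO (-0.73, adjusted p = 0.00474) and SPI1, the factor PU.1, differed by 0.32 (adjusted p = 0.749). The 10 lymphocyte markers summed to 682 to 763 in WT and 734 to 977 in KO libraries after LPS. The part of the monocytic markers in the chemokine differences was not tested.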

How the data were processed

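RNA of 32 THP-1 samples was sequenced with the QuantSeq 3′ FWD kit. According to the methods, the authors used Bbduk for trimming, STAR for mapping to GRCh38, HTSeq-count for counting and DESeq2 for normalization (versions and annotation release not given in the sources used here). The values deposited by the authors are other than raw counts: normalized counts with decimal commas, scaled separately for each line. Every library's nonzero values (100.000%) were multiples of 1 number to within 0.05 reads, which gave back the reads, and these were divided by median-of-ratios factors over all 32 libraries. Rows of 92 spike-in controls, with 1 read in all, were left out. Genes with a mean of at least 10 were tested with limma 3.58.1 (R 4.3.3) on log2(normalized count + 1), with 8 group means, eBayes with trend, and Benjamini-Hochberg adjustment over the 12406 genes of each of 19 comparisons, at a limit of 0.01. The fit was tested on simulated data.

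Groups and replicate numbers came from the sample titles. Same-numbered libraries deviated together among WT and KO groups, with correlations of at least 0.124 for every number in each pair of these groups, so the numbers pair them, and not in every pair with H760A or S455A. The replicate number as a block, other scales, pseudocounts, filters, fits of the compared groups alone and leaving out each library were alternatives. Count tests by negative binomial models were not run. The members and gene lists were chosen with earlier results of these data known. Genes named are the members, ACLY, genes of the lists (those called with the largest change in KO after LPS, or needed for their role) and the 5 genes most like each member over the group means. Promoters are from RefSeq, and 3 of 3 members matched.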

Additional observations from a re-analysis of the deposited data

Results flagged for a closer look

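The highest or lowest of 4 libraries stood far from the other 3 in 3 of the 32 groups of 4 examined, CXCL9, CXCL10, CXCL11 and ACLY in 8 groups each. Chance flags about 1 in 20 such groups. CXCL9 in unstimulated WT cells was 11.5 normalized counts in replicate 4 and 0 in the other 3 libraries, and its distance to the nearest library was 1 of the whole range on the log2(count + 1) scale. CXCL11 in LPS-stimulated WT cells was 208 in replicate 2 and 228 to 231 in the others, a distance of 0.848 of a narrow range. ACLY in LPS-stimulated S455A cells was 333 in replicate 1, the library in which CXCR3 had 0 reads, at a distance of 0.886 of the range.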

How the results depend on the processing

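Of 39 results (3 genes in 13 comparisons), 28 kept direction and side of the limit in every alternative, 10 settings besides leaving out libraries. On the deposited scale CXCL11 in H760A against WT passed (1.69) and CXCL10 in S455A against WT changed sign (0.0033). With a pseudocount of 4, CXCL9 in H760A against WT after LPS passed (2.12). In fits of the compared groups alone it passed too (2.21), while the LPS responses of CXCL9 in WT (4.35) and CXCL10 in KO (3.63) missed the limit. With the replicate block in the compared groups alone, CXCL11 in H760A against WT after LPS (1.86) and the LPS response of CXCL9 in S455A (6.51) missed it, and the block changed no other of these calls. Voom and library weights were added after seeing the data. With voom, the LPS response of CXCL9 in WT missed the limit (4.98). With library weights, CXCL9 in KO against WT (2.26), CXCL11 in H760A against WT (1.54) and CXCL10 in H760A against WT after LPS (1.37) passed. The cause was not tested.

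Leaving out each library in turn gave 1.55 to 2.77 for CXCL9 in KO against WT, 1.25 to 2.00 for CXCL11 in H760A against WT, 1.78 to 1.95 for it after LPS, -0.59 to 0.018 for CXCL10 in S455A against WT, -0.68 to 0.10 for the difference of its LPS responses between KO and WT, and -0.14 to 0.61 for that of CXCL11 between H760A and WT. Sign changes were at 0.090, 0.075 and 0.10 for the former and at -0.14 and -0.027 for the latter. The genes called in all ranged widely, in KO against WT after LPS from 300 to 1333, in H760A against WT from 8 to 2632, and after LPS from 7 to 1163. The count tests planned with edgeR and DESeq2 were not run. At this depth CXCL9 without LPS rests on 13, 26, 17 and 0 reads in WT, KO, H760A and S455A, so differences among these groups were not measurable with precision.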
